A study of Sus scrofa with 61 samples.

Results

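Axon guidance ligands and receptors were examined in the longissimus muscle of fetal pigs. The genes were those whose array name, or symbol in the study's gene lists, begins with SEMA, PLXN, NRP1, NRP2, EPHA, EPHB, EFNA, EFNB, SLIT1, SLIT2, SLIT3, ROBO, NTN or UNC5. This named 43 genes with 65 probes. A probe was kept where the scanner marked it as well above background on 80% or more of a group's arrays. This left 37 genes with 56 probes, out of 10240 gene symbols and 42436 probes kept in all. EPHA1, EPHA10, NTNG2, PLXNA1, SEMA3A and SEMA3F did not pass. UNC50 and UNC5CL share only letters with the UNC5 receptors and were kept apart, which left 35 guidance genes, 20 ligands and 15 receptors.

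The samples were 61 fetuses, each on 1 array with a single dye, so that a value is the relative brightness of a probe. LW is Large White, MS is Meishan, LWMS fetuses had an MS sow and an LW boar, and MSLW fetuses had an LW sow and an MS boar. At day 90 of gestation there were 8 fetuses of each genotype, and at day 110 there were 9 LW, 7 MS, 8 LWMS and 5 MSLW fetuses. The purebreds and the crosses came from sows inseminated with mixed semen, so a litter could hold both. The labels name no sow for a fetus, so littermates count as separate fetuses and p-values do not cover the sharing of a sow.

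Guidance ligands were first described as cues that attract or repel growing axons. Semaphorins act on plexins, for the secreted class 3 together with neuropilins. Ephrins and EPH receptors signal between touching cells, SLIT proteins act on ROBO receptors, and netrins on UNC5 and DCC family receptors. In muscle the same molecules are known from motor axon growth and the neuromuscular junction, from vessel patterning (ROBO4, PLXND1, UNC5B, EFNB2) and from muscle precursor cells.

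The muscle fibre markers were well above background on all arrays for 7 of 7 measured genes, with a mean log2 intensity per fetus of 17.24 to 17.78. Markers of other cells were present too. Between 34346 and 45683 probes per array were well above background, and no member probe was saturated. The arrays lay on 8 slides that each held several groups.

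The probes are 60 bases long, and the first 30 bases are printed 5′ to 3′ for the probes on which the results turn, because different probes of a gene did not always give the same answer. Capitals mark a run that the probe shares with another probe of its gene. The files place none of these probes on a genome build, so no coordinates are given. Where on the transcript each probe lies, and on which strand, was not determined.
SLIT3 O7337: ttggaggcctgttcaccctccagctcctgc
SLIT3 A_72_P305074: ggttcgtgttgtgtatttgtccggttttta
EFNA4 A_72_P280714: tcttgctcctgctgctgctcccaattctgc
EFNA4 O9547: cttctgtgaagacggacttaccatgaggtt
EFNA4 A_72_P543158: atctttctgaaccaaaccttcaataaacca
SEMA3B A_72_P485456: aagaattccttgcgaatgtgtcgtccacaa
SEMA3B O8333: atttattaaCAGGATAACGCTTGAATGTAA
SEMA3B A_72_P684322: tatttattaagCAGGATAACGCTTGAATGT
NTN4 A_72_P177556: tctgggacttggagggcaagatcattgtag
NTN4 O5759: ataaagcactttactacctaccacttgtgt
SEMA6D A_72_P390148: gtcttCCCATTAAATGTGAACATTTTAATA
SEMA6D O9534: CCCATTAAATGTGAACATTTTAATATGTAT
EFNB3 O6595: acttctcttaccaaccactcccctcagcct
ROBO1 O8035: agtaacgtgcatactttattgtgggccatg
EPHB2 O7334: atccaggtgatgcgggcacagatgaaccag
UNC5CL A_72_P477110: tcttcgagcggctgcagatgttattagagc
The SEMA6D pair shares 55 bases and the 2 SEMA3B probes O8333 and A_72_P684322 share 49, so these pairs are not separate readings of their genes. The 2 kept probes of SEMA4D have the same 60 bases.

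The first comparison was day 110 against day 90, averaged over the 4 genotypes. The receptors ROBO1, EPHB2, EPHA3, PLXND1 and UNC5B were lower close to term, together with the ligands SEMA6D and EFNB1, while the rises were under 0.5 on the log2 scale except for UNC5CL. Of the 37 genes, 23 fell and 9 rose at an adjusted p under 1% (limma, Benjamini-Hochberg over all kept probes). The background was high, since 76.3% of all gene symbols passed this test, 38.4% with a fall and 37.9% with a rise. The median log2 difference was -0.43 over the 37 genes and 0.02 over all symbols. Among the 15 receptors 12 fell and 1 rose, and among the 20 ligands 10 fell and 7 rose. Gene by gene the main probe is used, which is the brightest of the kept probes.

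ROBO1, a receptor of SLIT proteins, changed most among the falling genes. Its log2 intensity ran from 10.32 to 11.26 (median 10.73) in the 32 fetuses of day 90 and from 7.44 to 9.52 (median 8.39) in the 29 fetuses of day 110. No fetus of one day reached the range of the other. The log2 difference was -2.42 ± 0.08 (SE, adjusted p = 1.52e-34, limma), which is 5.34-fold lower at day 110. ROBO2, a second SLIT receptor, was dim. It passed the filter only through day 90, which favoured a fall, and its fitted log2 difference was -1.32 ± 0.09, measured against values of day 110 that were mostly below the background mark. It was well above background on 31 of 32 arrays of day 90 and 6 of 29 of day 110, and on none of the 9 LW arrays of day 110, so that in LW it was at least 1.66-fold lower at day 110 (the dim group set at the lowest signal well above background on each array). ROBO4, the endothelial member, fell by 1.08 ± 0.23, but it passed the test within 1 genotype, LWMS (-2.01), it was well above background on 28 of 32 and 14 of 29 arrays, and its ranges overlapped, 3.58 to 6.16 at day 90 and 1.58 to 6.17 at day 110.

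The SLIT ligands moved less. SLIT2 ranged from 9.22 to 10.27 (median 9.83) at day 90 and from 8.00 to 10.11 (median 9.37) at day 110, a fall of 0.62 ± 0.07 on the log2 scale. Its second probe gave -0.61. SLIT2 fell in MS (-0.84) and MSLW (-0.92), while the differences of -0.32 in LW and -0.40 in LWMS did not pass. The age change in MS minus that in LW missed the threshold (-0.52, 95% interval -0.91 to -0.13, adjusted p = 0.0625, limma).

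All 4 measured EPH receptors, tyrosine kinases that bind ephrins on neighbouring cells, fell in each of the 4 genotypes. EPHB2 ran from 8.28 to 9.13 (median 8.75) at day 90 and from 6.11 to 7.81 (median 6.69) at day 110, without overlap, and was 4.13-fold lower at day 110 (log2 difference -2.05 ± 0.10). EPHA3 ran from 8.94 to 9.68 and from 7.36 to 8.35, also without overlap (-1.54 ± 0.06). For EPHA4, known from motor axon guidance in the limb, the difference was -0.96 ± 0.07, and its other 2 kept probes gave -0.81 and -1.13. The probe with -1.13 was well above background on 25 of 32 arrays of day 90 and 4 of 29 of day 110. It passed the filter only through day 90, which favoured a fall, so it adds no separate support. EPHB3 had a difference of -0.82 ± 0.07.

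Among their ligands, EFNB1 fell in all 4 genotypes (-1.30 ± 0.08), with values from 6.98 to 7.66 at day 90 and from 5.40 to 7.45 at day 110. EFNA1 fell by 0.43 and EFNB2, a marker of arteries, by 0.16. EFNA3 (0.39 ± 0.11) and EFNA4 (0.38 ± 0.12) rose. Within genotypes, EFNA3 passed in MS (0.81) and EFNA4 in none. EFNB3 differed by genotype and is described below.

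SEMA6D, a transmembrane semaphorin, had the steepest fall of the ligands. Its log2 intensity ran from 11.45 to 12.14 (median 11.83) at day 90 and from 9.49 to 10.68 (median 10.06) at day 110. The ranges did not meet, and the difference was -1.68 ± 0.05, with -1.39 to -1.78 over its 6 probes. Of these, A_72_P661783 was well above background on 31 of 32 arrays of day 90 and 10 of 29 of day 110. It was kept only through day 90, which favoured a fall. SEMA4F (-0.81), SEMA4D (-0.69), SEMA5A (-0.54) and SEMA6A (-0.48) fell less. SEMA4G (0.49), SEMA7A (0.48), SEMA6C (0.47) and SEMA4A (0.32) rose, of which SEMA4A, SEMA4G and SEMA7A were well above background on 52, 57 and 49 of the 61 arrays. SEMA3G differed by 0.00 and did not pass.

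Their receptors went different ways. PLXND1, which in vessels receives semaphorin signals, ran from 8.14 to 9.17 (median 8.66) at day 90 and from 6.08 to 8.08 (median 7.05) at day 110 without overlap, 3.06-fold lower at day 110. PLXNC1 rose by 0.41 ± 0.09, and PLXNB1 did not pass. NRP2 fell by 0.50 and NRP1 by 0.30. PLXNA2, described in full only after its values were seen, fell by 0.63 ± 0.15, but 1 LW fetus of day 110 stood at 8.98 where the next LW fetus had 5.69. Without that fetus, an alternative chosen after seeing the data, the fall was 0.73 and the change within LW moved from -0.19 to -0.60 and passed (adjusted p = 0.00111, limma). The PLXNA2 difference was -0.34 with the median signal, -0.33 in the deposited values and -0.21, no longer past the threshold, with the background modelled (normexp).

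Of the netrin pathway, UNC5B, a repulsive netrin receptor also found on vessels, ran from 10.18 to 11.13 (median 10.75) at day 90 and from 8.39 to 9.98 (median 9.17) at day 110. The days did not overlap, and the difference was -1.56 ± 0.07, with -0.90 for its second probe. UNC5C did not pass (0.04). For NTN4, named after a basement membrane netrin, the brighter probe fell by 0.38 ± 0.04 and the dimmer one by 1.96. Their mean log2 levels were 16.77 and 7.58. Which transcript the brighter probe detects was not determined, so its values are not a secure reading of the netrin.

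UNC5CL, whose product resembles the inner part of UNC5 receptors and is not a netrin receptor, passed the background mark on 0 of 32 arrays of day 90. At day 110 it passed that mark on 2 of 9 arrays of LW, 7 of 7 of MS, 5 of 8 of LWMS and 5 of 5 of MSLW. It passed the filter only through day 110 and therefore had to be higher there. Against the lowest signal well above background, UNC5CL was higher at day 110 by at least 2.79-fold for MS fetuses and at least 2.48-fold for MSLW. The same reckoning gave 1.57 for LW and 2.66 for LWMS. Part of the LW and LWMS arrays of day 110 were themselves below the mark, so these are not measured folds. UNC50, a Golgi protein, fell by 0.22.

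In all, 6 of the 37 genes had no overlap between days (ROBO1, EPHB2, SEMA6D, PLXND1, UNC5B and EPHA3), against 13.0% of all symbols. All 6 were lower at day 110. Of the 37 main probes, 10 were not well above background on every array, and 6 of the 9 rising genes were among them, against 3 of the 23 falling genes. Of the 24 age differences followed slide by slide, 19 had the same direction on all 8 slides. The exceptions were ROBO4, EFNA3, EFNA4, SEMA3B and the main probe of SLIT3.

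**Figure D1:**
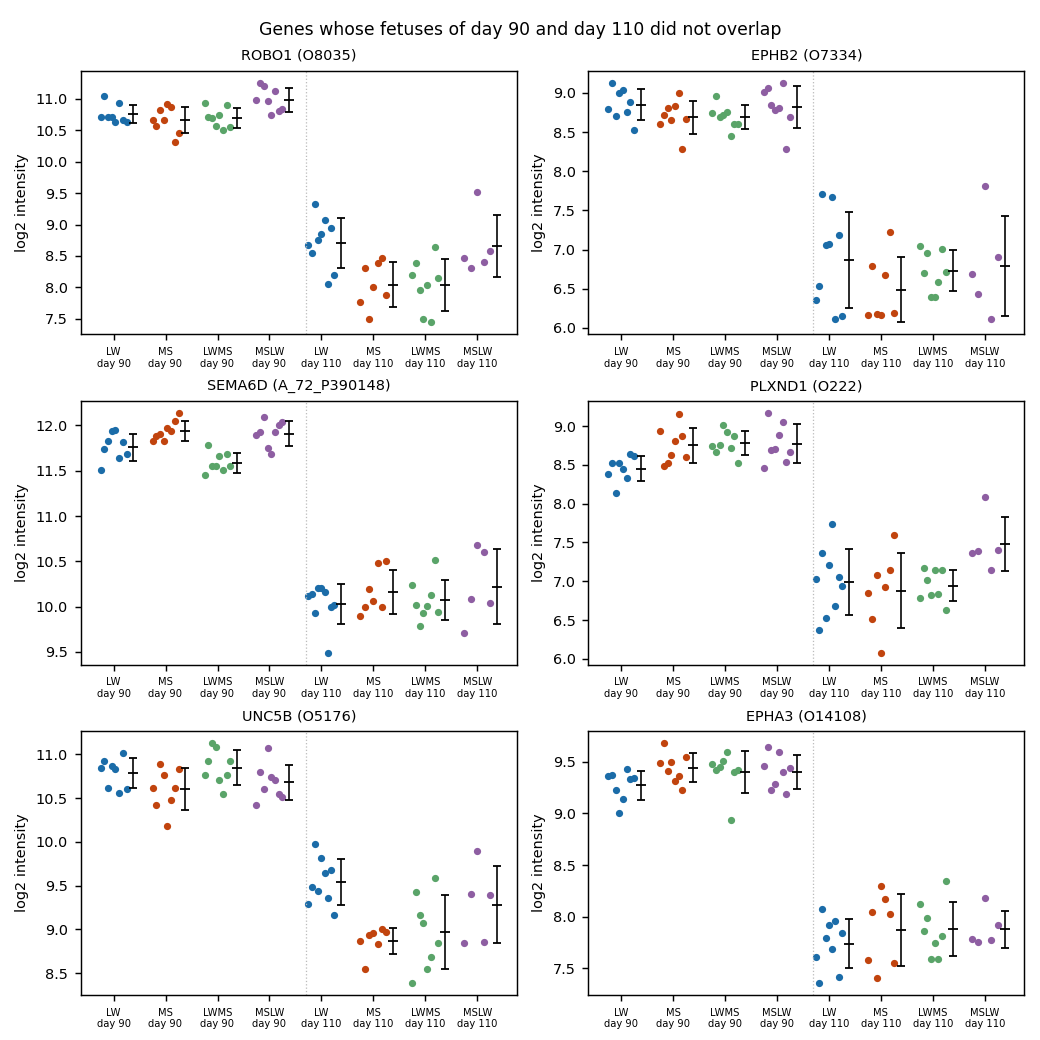
Log2 intensity of each fetus (points; filled where well above background) in the 8 groups for the 6 genes without overlap between days, with the group mean and SD (black bars). For ROBO1 the lowest fetus of day 90 stood at 10.32 and the highest of day 110 at 9.52.

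Taken by genotype, LW had 17 of the 37 genes past the threshold (49.8% of all symbols), MS had 25 (61.9%), LWMS had 24 (55.6%) and MSLW had 19 (49.9%). In all 4 genotypes 15 of the 37 genes fell, where 21.7% of all symbols did. These were the 4 EPH receptors, ROBO1, ROBO2, NRP2, PLXND1, UNC5B, NTN4, SEMA6D, SEMA4F, SEMA6A, EFNA1 and EFNB1. ROBO2 was kept only through day 90, and NTN4 was read by its bright probe, whose transcript was not determined. Past the threshold upward in all 4 was UNC5CL, which had to be higher at day 110 by the filter, against 16.9% of all symbols. A further 6 genes passed in no genotype. The fall was steeper in MS than in LW for 19 of the 23 falling genes, as a description without a test. The same count was not made over all falling symbols, of which no share can be set beside it. More of all symbols passed in MS (61.9%) than in LW (49.8%), which is another measure and includes rises. Without the matching share, the count cannot be read as a trait of these genes. Tested gene by gene, the age change in MS minus that in LW passed for 0 of 37 genes (limma; 9 at an unadjusted p under 0.05), against 9.14% of all symbols.

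**Figure D2:**
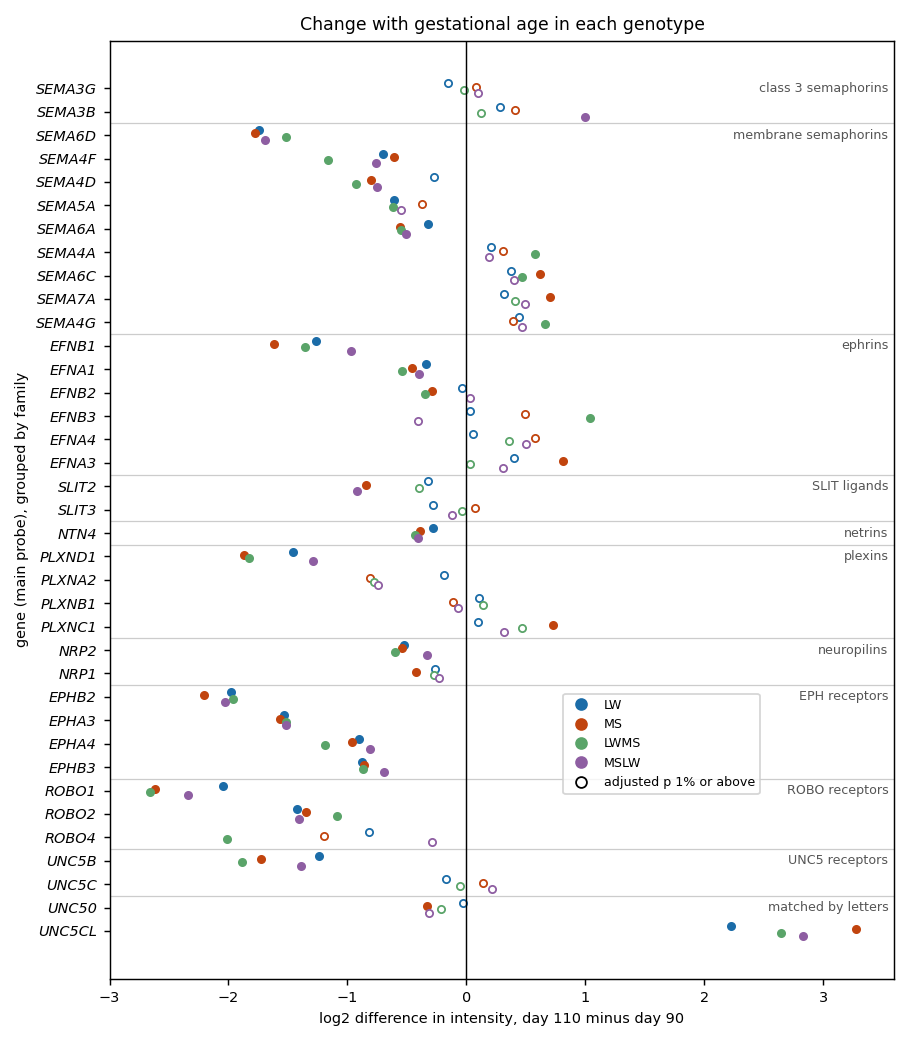
Log2 difference of day 110 minus day 90 (horizontal axis) for the main probe of each of the 37 genes, by genotype (colour) and family (rows), filled where the adjusted p was under 1%. The EPH and ROBO receptors lie left of 0 in all 4 genotypes, from -0.29 for ROBO4 in MSLW to -2.66 for ROBO1 in LWMS.

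Other cell types moved with these genes. All 6 dividing cell markers passed, 5 of them lower at day 110, and their mean log2 intensity per fetus went from 9.99 to 10.63 at day 90 to 6.36 to 8.79 at day 110. The 6 fibroblast markers all fell (13.32 to 13.77 at day 90 and 11.32 to 12.56 at day 110), as did the 4 pericyte markers (11.11 to 11.85 and 10.20 to 11.17). Of the 7 endothelial markers 5 fell and 1 rose (11.61 to 12.18 and 10.82 to 11.64). Of the 8 Schwann cell and nerve markers 4 rose and 2 fell (10.55 to 11.15 and 10.46 to 10.98). All defining markers of the fibroblast, pericyte and endothelial lists were well above background on all arrays. Their part in the guidance gene results was not tested, and in whole muscle fewer cells of a type and less RNA per cell cannot be told apart.

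Among 72 further genes of the pathway (co-receptors, adhesion partners and the signalling proteins inside the cell), 55 were measured, and 37 fell and 7 rose with age, with a median log2 difference of -0.32. Over all symbols 38.4% fell and 37.9% rose, with a median of 0.02. SRGAP3 (-2.44), which links ROBO receptors to Rac, TIAM1 (-1.89), a Rac activator, FLRT2 (-1.61), an adhesion molecule that binds UNC5 receptors, and CXCR4 (-1.50), the receptor of CXCL12, fell most. The netrin and repulsive guidance receptor NEO1 fell by 0.92, and its ligand RGMA by 0.92 too. VAV3, a Rac activator, rose by 1.03.

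The purebreds, which are extremes for survival at birth, were compared at each day. At day 90, 4 of the 37 genes differed between MS and LW, all higher in MS, where 13.3% of all symbols differed, 6.69% higher and 6.65% lower in MS. EFNB3, a ligand of EPH receptors at nerve and midline boundaries, had a median of 7.50 in LW (6.64 to 7.96) and of 8.73 in MS (8.39 to 9.38). Every MS fetus was above every LW fetus, and the log2 difference was 1.49 ± 0.26 (adjusted p = 1.92e-05, limma), which is 2.80-fold. SEMA4D, a semaphorin that binds PLXNB1, had a median of 10.71 in LW (10.61 to 11.03) and of 11.38 in MS (11.07 to 11.69), also without overlap (0.62 ± 0.11). These 2 of 37 genes compare with 7.21% of all symbols without overlap. NRP1 (9.32 ± 0.28 in LW and 9.80 ± 0.23 in MS, SD, n = 8 each) and SEMA6A (8.34 ± 0.18 and 8.71 ± 0.18) were higher in MS with overlapping ranges, by 0.48 and 0.37. The NRP1 difference passed narrowly (adjusted p = 0.00691, limma) and was lost when no filter on dim probes was set (0.0104). Markers of other cells differed at this day too. Of the 4 pericyte markers 2 were higher in MS (RGS5 by 0.73 and CSPG4 by 0.90). Of the 8 Schwann cell and nerve markers S100B (1.18) and MBP (0.48) were higher and ERBB3 lower (-0.41). Of the 7 endothelial markers KDR was lower in MS (-0.71), and of the 7 muscle fibre markers CKM was higher (0.23) and TNNT3 lower (-0.38). Their part in the guidance gene differences was not tested.

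At day 110, 2 of the 37 genes were higher and 3 lower in MS, where 32.8% of all symbols differed, 14.7% higher and 18.0% lower. With each array scaled to its 75th percentile, 4 were higher and 2 lower. EFNB3 was again higher in MS, with 6.85 to 7.95 (median 7.45) in the 9 LW and 9.21 to 9.58 (median 9.39) in the 7 MS fetuses, a difference of 1.95 ± 0.27 or 3.86-fold. The other gene counted as higher, UNC5CL, had a fitted difference of 1.06 ± 0.21, but only 2 of the 9 LW arrays were well above background and it was kept through MS and MSLW of this day, so the size is not a measured fold. Without UNC50 and UNC5CL, an alternative chosen after seeing the data, 1 gene was higher and 3 lower. UNC5B was lower in MS, with 9.54 ± 0.26 in LW and 8.87 ± 0.15 in MS (SD, n = 9 and 7) and no overlap (-0.67 ± 0.14). The second UNC5B probe had 5.91 ± 0.31 in LW (5.30 to 6.26) and 5.72 ± 0.47 in MS (5.05 to 6.55), with overlap. By the main probes, EFNB3 and UNC5B were the 2 of 37 genes without overlap, against 10.1% of all symbols. ROBO1 was lower in MS by 0.67 ± 0.15, with overlapping ranges of 8.05 to 9.33 and 7.49 to 8.46. NTN4 was lower in MS by 0.29 ± 0.07. The NTN4 probe used is among the brightest of the array, and under that scaling the difference was 0.02 and did not pass. The dimmer NTN4 probe had 6.57 ± 0.32 in LW and 6.47 ± 0.18 in MS (SD, n = 9 and 7). The call therefore holds for the bright probe only, and which transcript that probe detects was not determined. Between LW and MS the fibroblast markers also differed at this day, 4 of 6 lower in MS (11.97 to 12.55 in LW and 11.32 to 11.68 in MS), and 4 of 6 dividing cell markers were lower in MS. Of the 4 pericyte markers 3 were lower and 1 higher, and of the 7 endothelial markers 2 were lower (KDR, -1.31, and CLDN5, -0.41). Of the 4 measured satellite cell and myoblast markers, PAX7 was higher in MS by 1.54, MYOG was lower (-0.48) and 2 did not pass. Their part in these differences was not tested.

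SEMA4D and SEMA6A, apart at day 90, did not pass at day 110. SEMA4D then had 10.49 ± 0.22 in LW and 10.58 ± 0.22 in MS (SD, n = 9 and 7). It fell with age in MS (-0.80), LWMS (-0.93) and MSLW (-0.75), and the difference of -0.27 in LW did not pass. The difference between the MS and LW age changes was -0.52 (95% interval -0.84 to -0.21, adjusted p = 0.0189, limma) and missed the threshold.

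EFNB3 was the one gene with a clear order of purebreds at both days, and its crosses were uneven. On the slides that held both purebreds, MS was above LW on 8 of 8 at day 90 (0.75 to 2.74) and 6 of 6 at day 110 (1.57 to 2.13). At day 90, 5 of the 8 LWMS fetuses lay within the reach of LW, at 7.71 or below, and 3 within that of MS, at 8.42 or above. Of the 8 MSLW fetuses 2 lay at 7.05 or below and 6 at 8.68 or above. No cross fetus of day 90 fell between the highest LW (7.96) and the lowest MS (8.39). At day 110 all 8 LWMS fetuses were between the purebreds, from 8.52 to 8.92, and of the 5 MSLW fetuses 3 were between them and 2 within the reach of LW. EFNB3 rose with age in LWMS (1.04 ± 0.26), and in MSLW the difference was -0.41 ± 0.30 and did not pass. MSLW minus LWMS was 0.80 at day 90 (95% interval 0.27 to 1.33, adjusted p = 0.185, limma) and -0.64 at day 110 (-1.25 to -0.04, adjusted p = 0.295, limma). A second EFNB3 probe was well above background on 9 of 61 arrays and was not used, so the pattern rests on 1 probe.

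**Figure D3:**
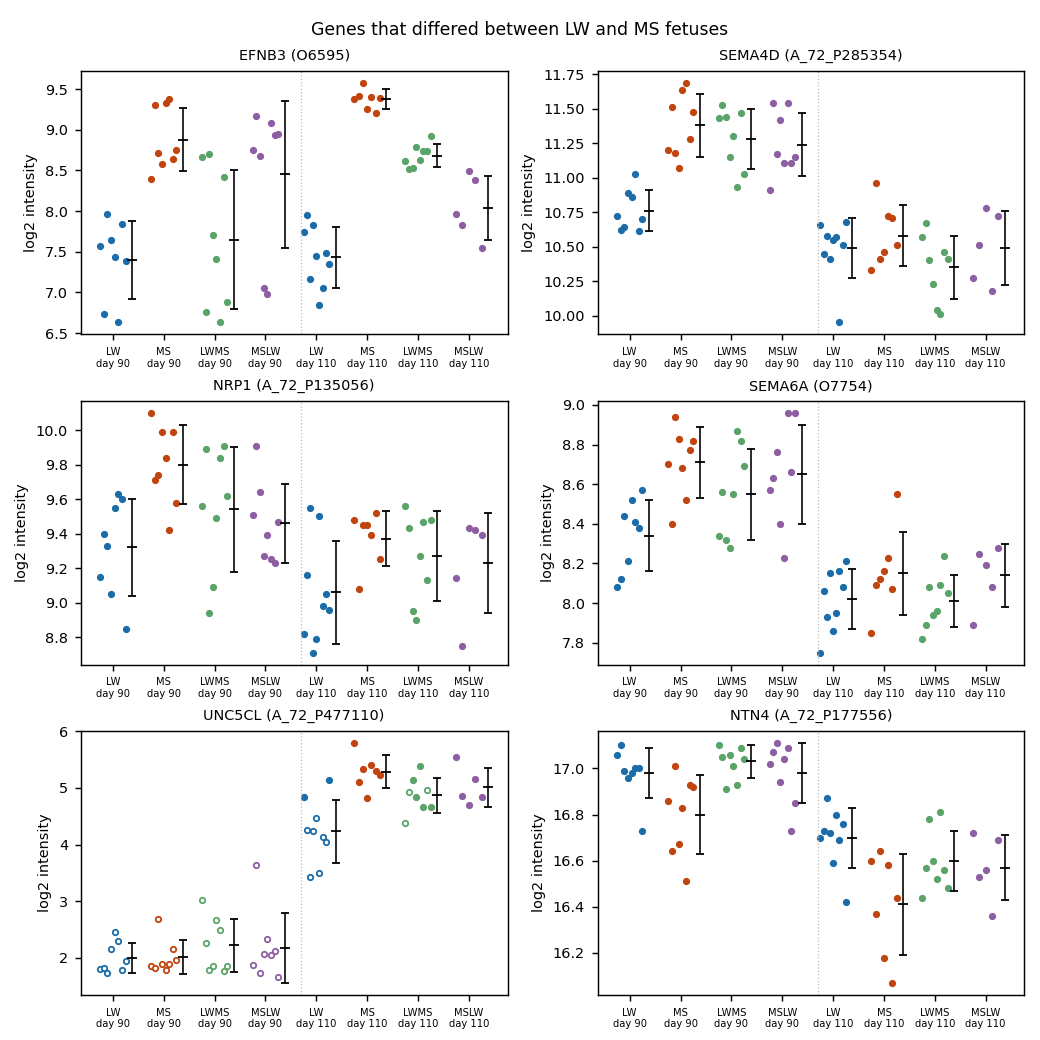
Log2 intensity of each fetus (points; open where not well above background) with the group mean and SD for genes that differed between LW and MS. The EFNB3 panel shows MS above LW at both days, while the day 90 crosses divide between values up to 7.71 and values from 8.42.

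Between the reciprocal crosses, which carry the same 2 breeds with the parents exchanged, no gene passed at either day (limma; 5 genes at day 90 and 13 at day 110 at an unadjusted p under 0.05), where 0.459% and 1.32% of all symbols did. The lowest adjusted p at day 110 was that of ROBO1, higher in MSLW by 0.62 (95% interval 0.27 to 0.97, adjusted p = 0.0388, limma). Against the mean of the purebreds the crosses differed for 0 of 37 genes at both days (limma; 3 and 2 at an unadjusted p under 0.05), against 0.0488% and 0.0781% of all symbols. In a model with age and both parental genotypes, the change with age depended on the sow's breed for 1 gene, EFNB2 (-0.31 ± 0.08 for MS against LW sows, adjusted p = 0.00589, limma), where 4.68% of symbols did. EFNB2 fell in the genotypes with MS sows, by 0.29 in MS and 0.35 in LWMS. It differed by -0.04 in LW and 0.03 in MSLW, which did not pass. This call was lost when 1 of the MSLW fetuses of day 110, the first or the third, was left out (adjusted p = 0.0105 and 0.0112, limma), and also with the median signal (-0.22), the deposited values (-0.22) and normexp (-0.25). It rests on the main probe, the only 1 of 56 member probes that passed for this term. The second EFNB2 probe had higher group means at day 110 than at day 90 in all 4 genotypes (5.89 and 5.60 in MS, 5.70 and 5.62 in LWMS). The boar's breed mattered for 0 of 37 main probes (limma; 4 at an unadjusted p under 0.05), against 0.889% of symbols.

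SLIT3, a SLIT ligand, had 2 probes that did not move together. The brighter one, O7337, ran from 9.37 to 10.87 (median 9.80) at day 90 and from 9.30 to 10.20 (median 9.73) at day 110, and its difference of -0.09 did not pass. The other, A_72_P305074, the one in the study's lists, ran from 8.29 to 9.30 (median 8.83) and from 7.09 to 8.36 (median 7.70), a fall of 1.13 ± 0.06. This second probe was the only one of the 56 whose age change differed between MS and LW (-0.88 ± 0.15, adjusted p = 6.26e-05, limma), where 5.95% of all kept probes did. The falls were 0.72 for LW, 0.89 for LWMS, 1.31 for MSLW and 1.60 for MS. MS stood above LW at day 90 by 0.48 (9.06 ± 0.20 against 8.58 ± 0.20, SD, n = 8 each) and below it at day 110 by 0.40 (7.46 ± 0.23 against 7.86 ± 0.19, SD, n = 7 and 9). The day 110 difference did not pass after normexp correction (-0.29). It was also the only member probe whose age change depended on the boar's breed (-0.65 ± 0.11, adjusted p = 2.88e-04, limma), against 0.462% of probes. For the O7337 probe the same terms were 0.36 and 0.14 and did not pass.

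**Figure D4:**
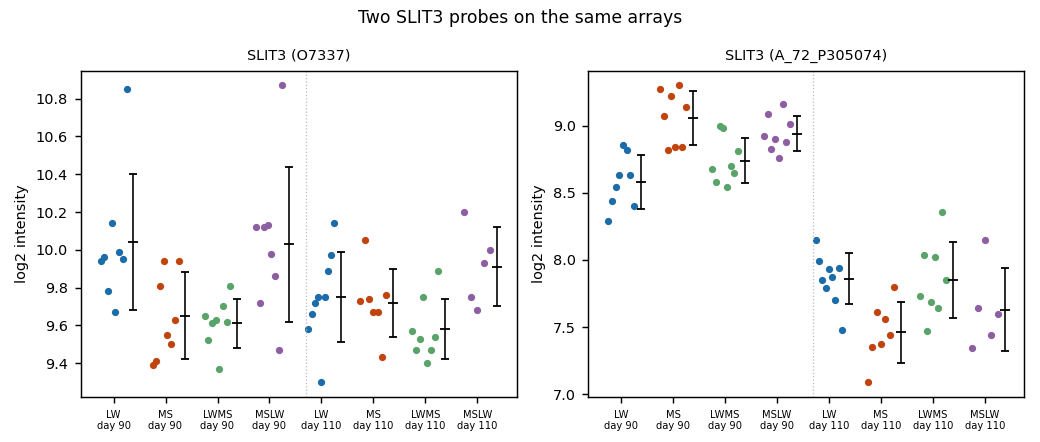
Log2 intensity of each fetus for both SLIT3 probes on the same arrays, with the group mean and SD. Group means of O7337 lie between 9.58 and 10.04, while A_72_P305074 goes from 9.06 to 7.46 in MS and from 8.58 to 7.86 in LW.

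Across the 8 group means, the member genes most like O7337 were EFNA1 (Pearson r = 0.506), EPHB3 (0.490), EPHA4 (0.481), SEMA5A (0.455) and ROBO1 (0.372). For A_72_P305074 they were EPHB2 (0.960), EPHA3 (0.958), SEMA6D (0.955), EFNB1 (0.951) and ROBO2 (0.949), all genes that fell with age. These correlations are descriptions over 8 points from the same arrays, and ROBO2 was kept only through day 90, which favoured a fall.

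Other genes depended on the probe as well. Of the 11 genes with several kept probes, 8 had all probes in the same direction with age and 3 had opposite directions. Among the former, EPHA4 A_72_P220702 and SEMA6D A_72_P661783 were kept only through day 90, which favoured a fall. EFNA4 rose by 0.38 with its main probe and fell by 1.65 and 1.72 with the others, whose days did not overlap. For those 2 probes the values at day 110 were higher in MS than in LW, by 0.75 and 0.83 (adjusted p = 0.00153 and 0.0015, limma). SEMA3B rose by 0.45 with its main probe, which had a value in 30 of the 32 fetuses of day 90, and fell by 0.53 and 0.48 with the overlapping pair. Its rise was lost when spots marked as non-uniform were kept (-0.02). EFNB2 fell by 0.16 and rose by 0.26. NTN4 fell by 0.38 with the bright probe and by 1.96 with the other, which had no overlap between days. Which transcripts these probes detect was not determined, so for SLIT3, EFNA4, SEMA3B and EFNB2 the direction with age holds for the named probe only. For NTN4 the fall of 0.38 and the lower MS level at day 110 hold for the bright probe only. The lower MS level of UNC5B at day 110 rests on its main probe, O5176.

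**Figure D5:**
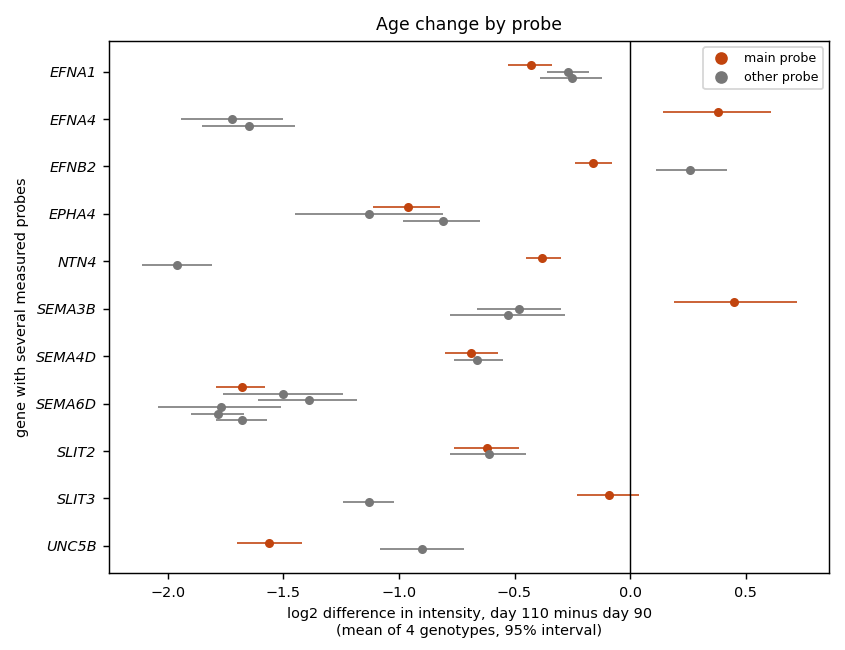
Log2 difference of day 110 minus day 90 with its 95% interval for every kept probe of the 11 genes with several probes, the main probe in orange. The 6 SEMA6D probes lie between -1.39 and -1.78, while the EFNA4 probes lie at 0.38, -1.65 and -1.72. SEMA6D A_72_P661783 and EPHA4 A_72_P220702 were kept only through day 90, which favoured a fall.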

How the data were processed

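Total RNA of fetal longissimus muscle was measured on 1-colour Agilent arrays. The authors deposited scanner output of Agilent Feature Extraction 10.10.1.1 with spot intensity values that are not normalized between arrays. They also deposited log2 values, quantile normalized over the 61 arrays, for 44368 spots. Each ID of that table is the line number of a spot in the scanner files, and its columns correlated at 0.978 to 0.993 with the values used here. Their medians were 8.09 to 8.10. Their signal column is not given in the sources used here.

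The background-corrected signal was used. Controls were left out, non-uniform spots (4 to 802 per array) set to missing, arrays quantile normalized and log2 transformed, and spots of a probe averaged. The filter is given above. Group means were fitted with limma 3.58.1 (R 4.3.3), moderated two-sided tests and Benjamini-Hochberg adjustment over 42436 probes at 1%. The parental model had age, sow's and boar's breed and their pairwise interactions. The code was tested on simulated data. The number of arrays, dim probes and the unrecorded sharing of sows limit the precision.

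Named genes were those in the study's lists, the 10 largest rises and falls with age, and the 5 (purebreds) or 3 (crosses, parental terms) largest per direction past the threshold. Other members are given by family, with values. Members and lists were chosen with earlier results of these data known. A result on 1 further gene is not reported here.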

Additional observations from a re-analysis of the deposited data

Results flagged for a closer look

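The SLIT3 probe A_72_P305074 had an age change that was not the same in MS and LW fetuses (-0.88 on the log2 scale), and between boar breeds for the same probe (-0.65). For the main probe of EFNB2 the age change differed between sow breeds (-0.31), a call that was lost with the median signal, the deposited values and normexp.

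Single fetuses stood far from the others of their group in 23 of 232 probe and group pairs, where chance gives about 1 in 20 (11.6 pairs). Values are log2 intensity. The widest gap was that of PLXNA2, where 1 LW fetus of day 110 had 8.98. One MSLW fetus of day 110 was highest for both ROBO1 (9.52) and PLXND1 (8.08). For SLIT3 O7337 a single fetus was highest in LW (10.85) and in MSLW (10.87) at day 90. Other fetuses that were highest in their group had 10.11 for SLIT2 in LW at day 110, 2.69 and 3.63 for UNC5CL in MS and MSLW at day 90, 5.44 for SEMA4G in MSLW at day 90, 6.01 for SEMA7A in MS at day 110, 10.38 for SEMA3B in LWMS at day 90, 5.94 for PLXNC1 in MSLW at day 90, 6.64 and 7.28 for EFNA3 in MS and LWMS at day 90, and 5.76 for SEMA4A in LWMS at day 110. Fetuses that were lowest had 9.95 for SEMA4D, 9.49 for SEMA6D and 3.56 for SEMA4G in LW at day 110, 9.22 for SLIT2 in MSLW at day 90, 3.93 for SEMA4A and 8.94 for EPHA3 in LWMS at day 90, 8.55 for UNC5B in MS at day 110, and 16.73 for NTN4 in LW at day 90.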

How the results depend on the processing

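Counts of called genes stayed within 1.5 times of those reported under the alternatives run (signal column, deposited values, background correction, scaling, filter, marked spots, slide as a block, no moderation, only the groups compared), except for 2 comparisons. The age change in MS minus LW gave 1 gene in place of 0 with the median signal, normexp, the slide block and purebreds only. The sow's breed gave 0 genes in place of 1 with the median signal, the deposited values and normexp, and 2 with the slide block, and from 0 to 2 when 1 MSLW fetus of day 110 was left out. For the mean age change the calls ranged from 23 of 27 genes (3 higher, 13.0%, requiring all arrays above background) to 32 of 37 (9 higher, 28.1%). Scaling to the 75th percentile moved the median of all symbols with age in MS from 0.01 to 0.14, and the MS minus LW calls at day 110 to 4 higher and 2 lower, in place of 2 and 3. At day 90 it gave 5 higher and 1 lower, and the slide block 4 higher and 2 lower. Directions turned for NTN4 at day 110 under that scaling (0.02), for SEMA3B with marked spots kept (-0.02), and with the median over a gene's probes for EFNA4 (-1.65) and SEMA3B (-0.48). The cause was not tested. Leaving out UNC50 and UNC5CL, or the LW fetus high for PLXNA2, both chosen after seeing the data, moved no count past 1.5 times. No pairing of fetuses by animal or litter was possible, because the labels give each fetus its own number and no number that groups share. The slides, which hold several groups each, were fitted as a block instead. Probes that were dim on part of the arrays limit ROBO2, ROBO4, SEMA7A, PLXNC1 and UNC5CL, and the dimmest kept probes of EPHA4 and SEMA6D.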
